A study of Mus musculus with 10 samples.

Results

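A set of 9 genes of platelets and of megakaryocytes, the bone marrow cells that shed them, is described here through the accessible chromatin assigned to them in mouse haematopoietic stem and progenitor cells (HSPCs). The genes are Gp9, Gp1bb, Gp6, Itga2b, Vwf, Ppbp, Tubb1, Cd9 and Rab27b. The assay was ATAC-seq: the transposase Tn5 cuts open chromatin and tags it for sequencing. The peaks of 8 HSPC libraries on chromosomes 1 to 19 and X were joined into 1 region if they had 1 bp or more in common. A merged region belonged to a gene when its midpoint lay in the gene body, or when that gene was the nearest protein-coding gene within 100 kb. This gave 79 of the 103446 regions, with 25 at Cd9, 19 at Vwf, 16 at Rab27b, 5 at Gp9, 4 each at Itga2b and Tubb1, 3 at Gp1bb, 2 at Ppbp and 1 at Gp6, and no region was assigned to more than 1 of these genes.

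The libraries come from 4 genotypes on the C57BL/6 strain with 2 libraries each. DM is the double mutant Npm1flox-cA/+;Flt3ITD/+;Mx1-Cre+. Flt3-ITD is Flt3ITD/+, an internal tandem duplication that keeps the cytokine receptor FLT3 signalling without its ligand. Npm1c is Npm1flox-cA/+;Mx1-Cre+, a conditional leukaemia-type mutation of the nucleolar protein nucleophosmin. WT is wild type. Mx1-Cre is driven by an interferon-inducible promoter that acts in many tissues, and the labels name no Cre for the Flt3-ITD and WT animals, so a difference that goes with Npm1c goes with the allele and Mx1-Cre together. All 8 libraries were made from 100000 lineage-depleted bone marrow cells, the fraction left after mature blood cells are removed. The labels number the libraries of a genotype and give no age, sex or animal, so p-values measure only the spread between these libraries, which may be technical. WT neutrophils (2 samples) were not analysed here.

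Megakaryocytes arise from stem cells either directly or through progenitors shared with red cells, under the transcription factors GATA1, RUNX1, FLI1 and NFE2. Their platelets hold on to injured vessels through the GPIb-IX-V complex, which binds von Willebrand factor, and through the collagen receptor GPVI, and they aggregate through integrin alphaIIb-beta3. In the mouse Vwf, Itga2b and Cd9 are also expressed in stem cells, so their chromatin is not a mark of megakaryocytes alone. Lineage-depleted marrow is a mixture, and in such bulk samples fewer cells of a type and less open chromatin per cell cannot be told apart.

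The 7 promoter windows matched showed 5 call patterns. The RefSeq sequences (GRCm38.p6, 250 bases before the transcription start to 50 after it) of genes from 4 of them are printed, because the results at Gp6, Ppbp, Gp9 and Tubb1 lie on them and Itga2b is the contrast. Peaks overlapped the Gp6 and Ppbp windows in Flt3-ITD only, the Gp9 window in Flt3-ITD and WT only, the Tubb1 window in every genotype except DM, and the Itga2b window, like that of Cd9, in all 8 libraries. The Gp1bb window, not printed, had a peak over 68 bp in Flt3-ITD replicate 1 alone. The windows are chr7:4397695-4397994 for Gp6 (minus strand), chr5:90768268-90768567 for Ppbp (plus strand), chr6:87777820-87778119 for Gp9 (plus strand), chr2:174450345-174450644 for Tubb1 (plus strand) and chr11:102469834-102470133 for Itga2b (minus strand) (build GRCm38.p6). Letters are in lower case 5′ to 3′ on the gene's strand, with capitals for matches on either strand to 4 motifs. These are AGATAA, read by factors such as GATA1, then GGAAGT, read by ETS factors such as FLI1, then TGTGGT, read by RUNX factors, and TGANTCA, read by AP-1.
Gp6: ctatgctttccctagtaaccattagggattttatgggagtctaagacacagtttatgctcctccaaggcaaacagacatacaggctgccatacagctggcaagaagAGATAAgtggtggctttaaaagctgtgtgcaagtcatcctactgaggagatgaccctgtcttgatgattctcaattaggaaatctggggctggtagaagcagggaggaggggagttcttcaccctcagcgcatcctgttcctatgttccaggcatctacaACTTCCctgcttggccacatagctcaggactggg
Ppbp: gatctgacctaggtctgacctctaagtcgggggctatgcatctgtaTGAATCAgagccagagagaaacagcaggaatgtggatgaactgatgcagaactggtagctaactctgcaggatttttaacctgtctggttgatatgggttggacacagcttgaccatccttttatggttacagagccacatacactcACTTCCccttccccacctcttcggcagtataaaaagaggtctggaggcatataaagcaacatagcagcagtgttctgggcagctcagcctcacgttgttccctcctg
Gp9: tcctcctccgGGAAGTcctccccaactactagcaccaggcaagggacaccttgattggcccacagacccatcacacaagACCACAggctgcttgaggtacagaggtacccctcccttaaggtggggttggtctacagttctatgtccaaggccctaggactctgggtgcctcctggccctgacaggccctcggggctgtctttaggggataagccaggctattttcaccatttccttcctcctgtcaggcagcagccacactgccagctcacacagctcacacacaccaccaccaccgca
Tubb1: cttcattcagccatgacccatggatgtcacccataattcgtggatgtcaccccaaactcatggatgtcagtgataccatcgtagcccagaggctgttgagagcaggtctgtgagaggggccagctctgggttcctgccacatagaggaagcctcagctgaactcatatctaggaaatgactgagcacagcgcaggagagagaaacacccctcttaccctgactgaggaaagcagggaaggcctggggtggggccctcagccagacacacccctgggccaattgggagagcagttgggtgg
Itga2b: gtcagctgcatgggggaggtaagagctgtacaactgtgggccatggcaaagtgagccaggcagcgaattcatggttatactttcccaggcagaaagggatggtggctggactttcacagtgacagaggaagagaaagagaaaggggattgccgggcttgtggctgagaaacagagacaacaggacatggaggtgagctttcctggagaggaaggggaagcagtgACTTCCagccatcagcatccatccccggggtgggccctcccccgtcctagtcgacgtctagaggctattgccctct
No match overlapped another. The Gp6 window held AGATAA 144 bases before the start and the reverse complement of GGAAGT 16 bases after it. Ppbp had TGANTCA and the reverse complement of GGAAGT, Gp9 had GGAAGT and the reverse complement of TGTGGT, Itga2b had the reverse complement of GGAAGT, and Tubb1 had none of the 4. Gp1bb and Cd9 were searched too, and Gp1bb held TGANTCA. Among 21044 promoter windows of protein-coding genes, 25.0% held GGAAGT, 14.8% TGTGGT, 9.68% AGATAA and 7.04% TGANTCA. These are matches of letters and not measured binding sites. Vwf and Rab27b had no window in the table used.

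A deposited peak has a start and an end and no height, so the value given for a region in a library is the number of bases of it that peaks cover, and 0 means that no peak was called there. The lists differ in length for reasons that are not known, since read depth is unknown. They cover 30.0 and 33.9 Mb in DM, 24.2 and 29.8 Mb in Flt3-ITD, 39.6 and 43.2 Mb in Npm1c and 50.2 and 39.8 Mb in WT. Of the 79 regions, 36 and 35 were called in DM, 44 and 47 in Flt3-ITD, 43 and 49 in Npm1c and 57 and 52 in WT. These are 45.6% and 44.3% of the 79 in DM, against 50.4% and 58.0% of all regions called in the same libraries. In Flt3-ITD they are 55.7% and 59.5%, against 38.7% and 46.0% of all regions. Npm1c had 54.4% and 62.0%, against 57.0% and 63.1%, and in the WT libraries 72.2% and 65.8%, against 75.4% and 58.2%. Markers of the labelled cells were present: the stem and progenitor genes Kit, Cd34, Procr, Hlf and Mecom had called regions in all 8 libraries, and Ly6a in all but Flt3-ITD replicate 1. The 6 genes covered 13.3 and 16.9 kb in DM, 10.9 and 14.4 kb in Flt3-ITD, 29.4 and 36 kb in Npm1c and 34.9 and 26.1 kb in WT.

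**Figure D1:**
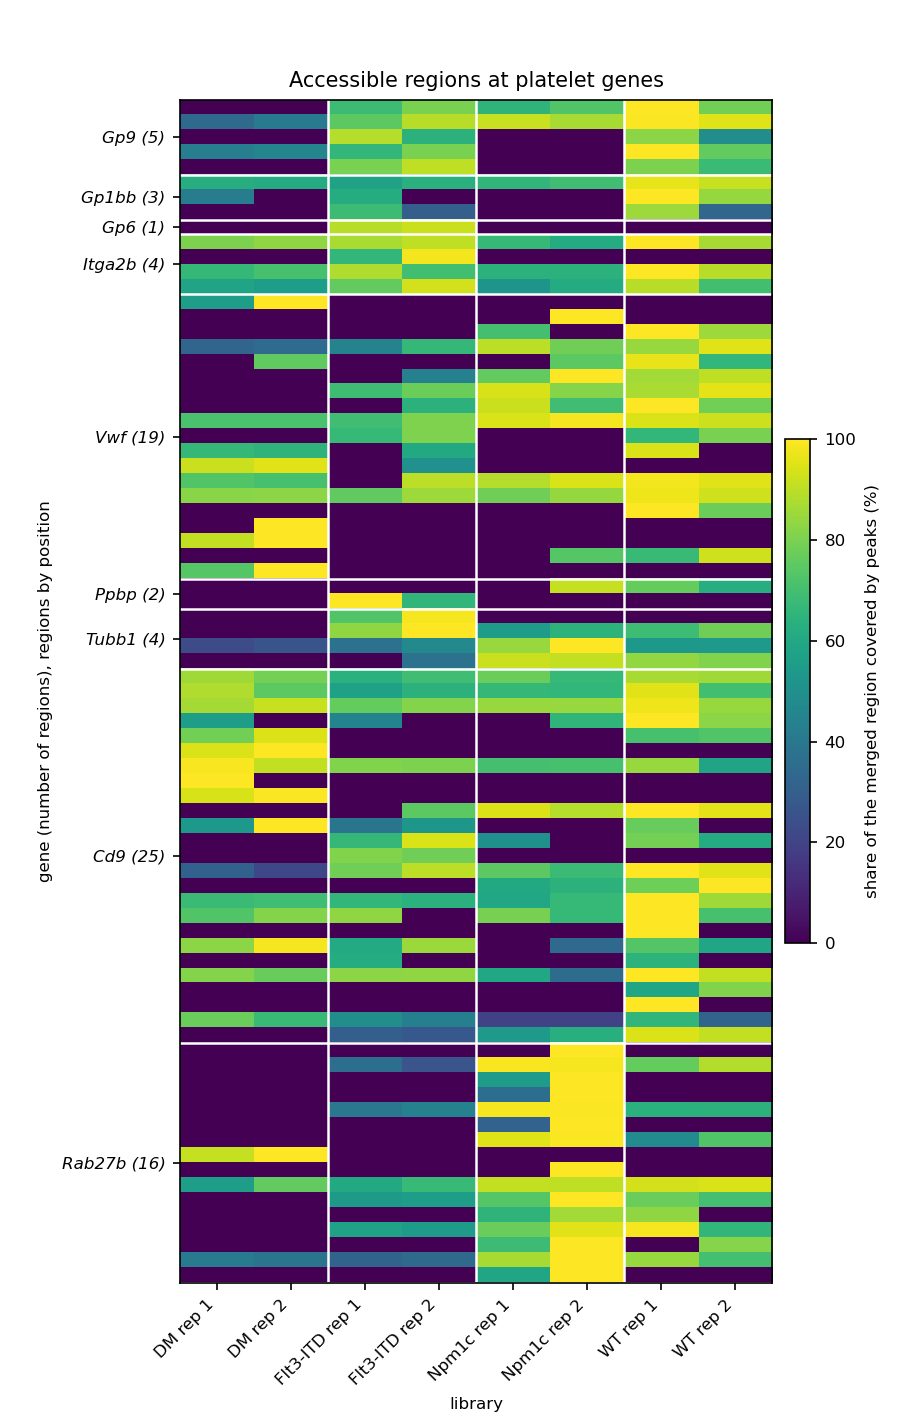
Share of each of the 79 merged regions covered by peaks, in percent from dark purple (0, no peak called) to yellow (100), with regions in rows by gene and libraries in columns by genotype. The single Gp6 region is covered in the 2 Flt3-ITD libraries alone, most Rab27b rows are widest in Npm1c, and 3 of 5 Gp9 rows are dark in DM where Flt3-ITD and WT are covered.

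Gained means here that both libraries of the genotype named first had a peak in the region and both of the other had none, and lost means the reverse. Each comparison has 2 libraries a side, where the exact two-sided p cannot go below 0.333, so these counts are descriptions and are read against the same share over all regions. The 3 comparisons with WT share its 2 libraries. In DM against WT, 24 of the 79 regions (30.4%) were lost, at 7 of the 9 genes, where 20.9% of all regions were. Gains in DM numbered 7 (8.86%), against 6.93% of all regions. They were below the share of all regions with lists of equal length (7.81%, with 13.6%), without WT replicate 1 (11.4%, with 15.7%) and without DM replicate 1 (10.1%, with 14.1%). Flt3-ITD against WT had 5 gained regions (6.33%), 1 each at Gp6, Itga2b, Ppbp, Tubb1 and Cd9, where 0.852% of all regions were gained. Without WT replicate 1 this was 6 (7.59%), with 4.62% over all regions, and with lists of equal length 8 of 64 (12.5%), with 5.85%. It had 9 lost regions (11.4%), fewer than the 16.2% of all regions. Npm1c against WT had 9 lost (11.4%, with 6.26% over all regions) and 4 gained (5.06%, with 2.71%), all 4 gains at Rab27b. Without WT replicate 2 Npm1c lost 14 (17.7%), which is near the 17.3% of all regions, and without Npm1c replicate 2 also 14 (17.7%), with 9.36%. The Npm1c gains were below the share of all regions without WT replicate 1 (6.33%, with 7.49%), and with lists of equal length none was left (4.72% of all regions). Flt3-ITD lost 14 (17.7%, with 23.1%) without Flt3-ITD replicate 2 and 3 of 64 (4.69%, with 6.49%) with lists of equal length. With the stricter call described at the end, Flt3-ITD lost 16 (20.3%), near the 20.4% of all regions. Npm1c then gained 2 (2.53%, with 3.4%).

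DM against Flt3-ITD asks what Npm1c and Mx1-Cre add where Flt3-ITD is present already. DM lost 18 of the 79 regions (22.8%), at least 1 at each of the 9 genes, where 3.44% of all regions were lost. The losses were 4 of 16 at Rab27b, 3 of 5 at Gp9, 3 of 25 at Cd9, 2 of 4 at Tubb1, 2 of 19 at Vwf and 1 each at Gp1bb, Gp6, Itga2b and Ppbp. Gains numbered 7 (8.86%, with 10.6% over all regions), at Vwf, Cd9 and Rab27b. DM against Npm1c had 20 lost regions (25.3%, with 19.3% over all regions), 11 of them at Rab27b, and 11 gained (13.9%, with 12.6%). With lists of equal length these losses were 12 of 64 (18.8%), near the 18.2% of all regions, and the gains 8 of 64 (12.5%, with 16.5%). On the same lists the loss in DM against Flt3-ITD was 19 of 64 (29.7%), with 6.97% over all regions. Leaving out single libraries gave 18 to 22 for it, the 22 (27.8%, with 8.26% over all regions) without Flt3-ITD replicate 1.

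**Figure D2:**
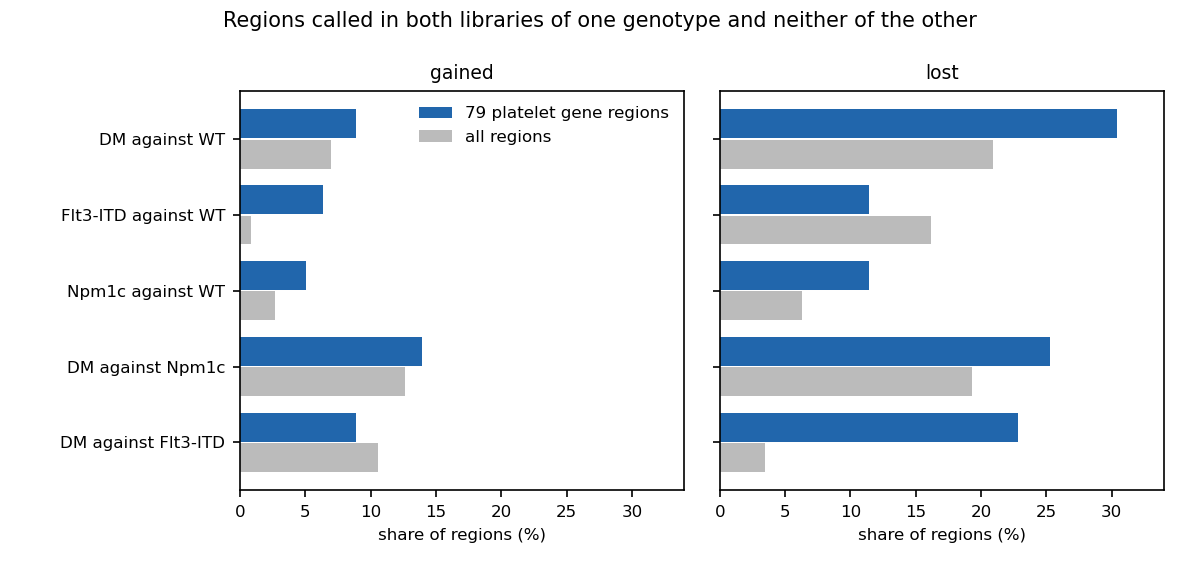
Share of regions gained (left) and lost (right) in each comparison of 2 libraries with 2, in percent, for the 79 regions of the platelet genes (blue) and for all 103446 regions (grey). The widest gap is that of losses in DM against Flt3-ITD, 22.8% and 3.44%, and Flt3-ITD against WT shows 6.33% gained against 0.852%.

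Gp9 and Gp1bb encode GPIX and the GPIb beta chain, subunits of the receptor for von Willebrand factor, and their chromatin was covered least where the Npm1c allele was present. The Gp9 promoter window is built on a start at chr6:87778070, inside the annotated gene, whose own 5′ end is at 87776131. At the window's start (chr6:87777824-87778292, midpoint 12 bp before it) peaks covered 0 and 0 bp in DM and 0 and 0 bp in Npm1c. They covered 416 and 301 bp in Flt3-ITD and 388 and 232 bp in WT. Further into the gene, chr6:87779193-87779628 had the same pattern, with 0 bp in both DM and both Npm1c libraries, 349 and 395 bp in Flt3-ITD and 350 and 297 bp in WT. The groups with and without the allele do not overlap at either region. Between them, chr6:87778552-87779085 was covered by 229 and 242 bp in DM, 354 and 426 bp in Flt3-ITD, 0 bp in both Npm1c libraries and 534 and 406 bp in WT. The region over the annotated 5′ end of the gene (chr6:87775748-87776420) was called in all 8 libraries. It was narrower in DM (232 and 280 bp) than in Flt3-ITD (503 and 600 bp), Npm1c (616 and 586 bp) and WT (668 and 639 bp). A region 5295 bp before that annotated end (chr6:87770664-87771008) had 0 bp in both DM libraries, 236 and 276 bp in Flt3-ITD, 225 and 252 bp in Npm1c and 345 and 271 bp in WT.

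At Gp1bb, the widest region (chr16:18621386-18622421) was covered by 0 bp in the 2 DM libraries, 710 and 314 bp in Flt3-ITD, 0 bp in the 2 Npm1c libraries and 885 and 341 bp in WT, and it reached the promoter window. It repeats the pattern of Gp9: called in all 4 libraries without the Npm1c allele and in none with it. The neighbouring region chr16:18620735-18621229 was covered by 210 and 0 bp in DM, 307 and 0 bp in Flt3-ITD, 0 bp in both Npm1c libraries and 495 and 417 bp in WT, and there the replicates of DM and of Flt3-ITD did not match. The remaining region, 2554.5 bp from the gene, was called in all 8 libraries. Over the 79 regions, 4 (5.06%) were called in all libraries without the Npm1c allele and in none with it, 2 at Gp9 and 1 each at Gp1bb and Vwf, where 211 of all regions (0.204%) were, and no platelet gene region had the opposite pattern (0.156% of all regions). With lists of equal length 2 of 64 (3.12%) were lost with the allele, with 0.629% of all regions, and without Flt3-ITD replicate 1 the 4 stood beside 0.853%. In the two-sided Fisher exact test such a region has p = 0.0286, and p = 1 after adjustment over 103446 regions, so none passes on its own.

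Gp1ba and Gp5, the other genes of this complex, had peaks on their promoter windows in Npm1c and none there in DM. They are named for their place in the complex, with their values known. The window of each was covered over all 300 bp in the Flt3-ITD, Npm1c and WT libraries and had no peak in the DM libraries. The region over the Gp1ba promoter (chr11:70638466-70639373) measured 0 bp in both DM libraries, 578 and 830 bp in Flt3-ITD, 389 and 435 bp in Npm1c and 842 and 869 bp in WT. The single region of Gp5 was called in all 8 libraries, with 579 and 504 bp in DM, 1662 and 2413 bp in Flt3-ITD, 2563 and 2669 bp in Npm1c and 3084 and 2686 bp in WT. The Npm1c libraries thus had no peak on the Gp9 window and peaks on those of Gp1ba and Gp5.

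Gp6 and Itga2b encode the collagen receptor GPVI and the alphaIIb chain (CD41) of the fibrinogen receptor. Gp6 had a single region, at its start (chr7:4397651-4398016), covered by 327 and 336 bp in the Flt3-ITD libraries and by none in DM, Npm1c or WT. Its midpoint lies at -89.5 bp from the start used for the promoter window (4397744). It is inside the annotated gene, whose 5′ end is at 4397851. Itga2b had 3 regions called in all 8 libraries, and the one over its start (chr11:102469544-102470607) measured 621 and 592 bp in DM, 808 and 992 bp in Flt3-ITD, 550 and 655 bp in Npm1c and 950 and 740 bp in WT. The remaining Itga2b region, inside the gene (chr11:102466095-102466408), had 208 and 309 bp in Flt3-ITD and 0 bp in the other 6 libraries. A promoter peak in every genotype thus stood beside a region called in Flt3-ITD alone. Regions called in Flt3-ITD alone numbered 5 of the 79 (6.33%), the 5 gained against WT, where 216 of all regions (0.209%) were, and all 5 are absent from DM.

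Ppbp encodes platelet basic protein, a chemokine precursor of alpha granules, and Tubb1 the beta1 tubulin of the platelet's marginal band. Peaks at the Ppbp start (chr5:90768274-90768689) covered 416 and 274 bp in Flt3-ITD and 0 bp in the DM, Npm1c and WT libraries. The other Ppbp region, 2281 bp before the start (chr5:90765944-90766530), went the other way, with 0 bp in both DM and both Flt3-ITD libraries, 0 and 536 bp in Npm1c and 448 and 366 bp in WT. Neither region was called in DM. Pf4, an alpha-granule chemokine gene beside Ppbp that was picked with its values known, had a region 2154.5 bp from the gene (chr5:90775013-90776062) with 0 bp in both DM libraries, 522 and 448 bp in Flt3-ITD, 943 and 1042 bp in Npm1c and 979 and 986 bp in WT. Its promoter window was called in all 8 libraries but covered over 100 and 180 bp in DM and 300 bp in the other 6.

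The Tubb1 start (chr2:174450332-174450865) was covered by 0 bp in both DM libraries, 445 and 534 bp in Flt3-ITD, 296 and 346 bp in Npm1c and 368 and 418 bp in WT. DM was the only genotype without this peak. Inside the gene, chr2:174453196-174454350 was called everywhere, with 267 and 298 bp in DM, 431 and 545 bp in Flt3-ITD, 978 and 1155 bp in Npm1c and 616 and 625 bp in WT, and the 4 genotypes do not overlap. A region 5038.5 bp before the start (chr2:174445346-174445767) was called in Flt3-ITD alone, with 307 and 416 bp, and one beyond the gene (chr2:174459254-174459873) had 0 bp in both DM libraries, 0 and 232 bp in Flt3-ITD, 570 and 564 bp in Npm1c and 519 and 503 bp in WT.

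**Figure D3:**
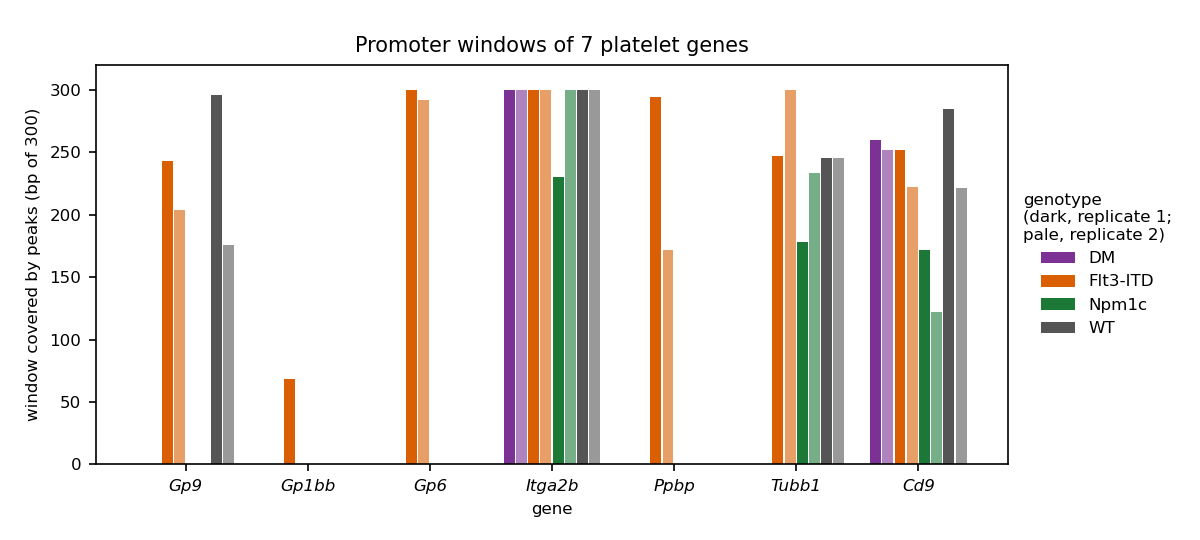
Bases of the 300 bp promoter window covered by peaks for the 7 genes with a window, with a bar for each library, coloured by genotype. Gp6 and Ppbp are covered in Flt3-ITD only, Gp9 in Flt3-ITD and WT only, and Tubb1 in every genotype but DM, while Itga2b and Cd9 have no empty library and Gp1bb has 68 bp in 1 Flt3-ITD library alone.

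Of the 21044 promoter windows, 6 were called in both Flt3-ITD libraries and in none of the other 6, a share of 0.0285%. They belong to Gp6, Ppbp, Alox12, Tbxa2r, Dcaf4 and Exoc3l2. Alox12, the 12-lipoxygenase of platelets, and Tbxa2r, the thromboxane receptor, were on the list of other platelet genes, and the names of the remaining genes were looked up after the pattern was seen. The Alox12 window was covered by 223 and 278 bp. That of Tbxa2r was covered by 141 and 3 bp, so the second library barely reached it, and another Tbxa2r start was called in DM, Flt3-ITD and WT. Windows called in Flt3-ITD and WT and in neither of the others numbered 18 (0.0855%), Gp9 among them. Those called in every genotype but DM numbered 111 (0.527%), among them Tubb1, Gp1ba and Gp5. Between 52.5% and 58.4% of the windows were called in a library, with no list far from the rest.

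Vwf encodes von Willebrand factor, the ligand of the GPIb complex, made by megakaryocytes and endothelium. DM lost 7 of its 19 regions against WT, where 20.9% of all regions were lost, and gained 4, where 6.93% were gained. The lost regions had 240 to 1100 bp in a WT library and the gained ones 202 to 401 bp in a DM library. The widest lost region was chr6:125564619-125565767, with 0 bp in both DM libraries, 793 and 890 bp in Flt3-ITD, 1081 and 942 bp in Npm1c and 1003 and 1100 bp in WT. Its neighbour chr6:125560930-125561474 had 0 bp in both DM libraries, 0 and 239 bp in Flt3-ITD, 415 and 545 bp in Npm1c and 470 and 492 bp in WT. Farther along, chr6:125583610-125584134 followed the Gp9 pattern, with 0 bp in both DM and both Npm1c libraries, 351 and 424 bp in Flt3-ITD and 347 and 420 bp in WT. Gains and losses were interleaved along the gene. Among the gains, chr6:125685385-125685785, inside the gene, was covered by 296 and 401 bp in DM, and chr6:125651353-125651715 by 330 and 363 bp, with 0 bp in all other libraries at both. Another DM region, chr6:125524041-125524403, lies 28726 bp outside the gene, with 202 and 363 bp. The widest regions, chr6:125572295-125574130 and chr6:125603134-125604846, were called in all 8 libraries, the first with 1310 and 1311 bp in DM, 1274 and 1479 bp in Flt3-ITD, 1732 and 1809 bp in Npm1c and 1733 and 1693 bp in WT. Flt3-ITD replicate 1 had 5 called regions at Vwf and replicate 2 had 10, so counts at this gene depend on which Flt3-ITD library is read.

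Rab27b encodes a small GTPase of dense granule secretion. Its coverage was greatest in Npm1c and least in DM, and the gene is on chromosome 18, from which no sequence is shown. The number called was 3 and 3 in DM, 6 and 6 in Flt3-ITD, 13 and 15 in Npm1c and 8 and 8 in WT, out of 16. Covered length was 1554 and 1775 bp in DM, 2094 and 2112 bp in Flt3-ITD, 6794 and 9464 bp in Npm1c and 4711 and 4756 bp in WT, and no genotype overlaps another. The order Npm1c, WT, Flt3-ITD, DM was the same per Mb covered in the library, at 51.8 and 52.4 in DM, 86.5 and 71.0 in Flt3-ITD, 172 and 219 in Npm1c and 93.9 and 120 bp per Mb in WT.

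The 4 regions gained in Npm1c against WT were called in Npm1c alone, as 2.38% of all regions were, and at all 4 replicate 2 was wider. The widest of them, chr18:70028770-70029775, had 318 and 1006 bp. The others, at chr18:70020855-70021461 (219 and 607 bp), chr18:70001671-70002099 (237 and 429 bp) and chr18:70184647-70185048 (236 and 402 bp), show the same imbalance, and with lists of equal length none of the 4 was gained. Without Npm1c replicate 1 the gained regions number 7 over all 9 genes (8.86%, with 6.19% over all regions). DM lost 5 of the 16 against WT, where 20.9% of all regions were lost. The lost Rab27b regions were 279 to 903 bp wide in a WT library. Of these, chr18:70000552-70001530 had 0 bp in both DM libraries, 352 and 259 bp in Flt3-ITD, 969 and 964 bp in Npm1c and 746 and 867 bp in WT. At chr18:70035663-70036903 both mutants with Flt3-ITD lacked a peak, with 0 bp in the 4 DM and Flt3-ITD libraries, 1182 and 1233 bp in Npm1c and 601 and 903 bp in WT. DM had a single region of its own, chr18:70045810-70046485, with 616 and 676 bp and none in the other 6 libraries.

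**Figure D4:**
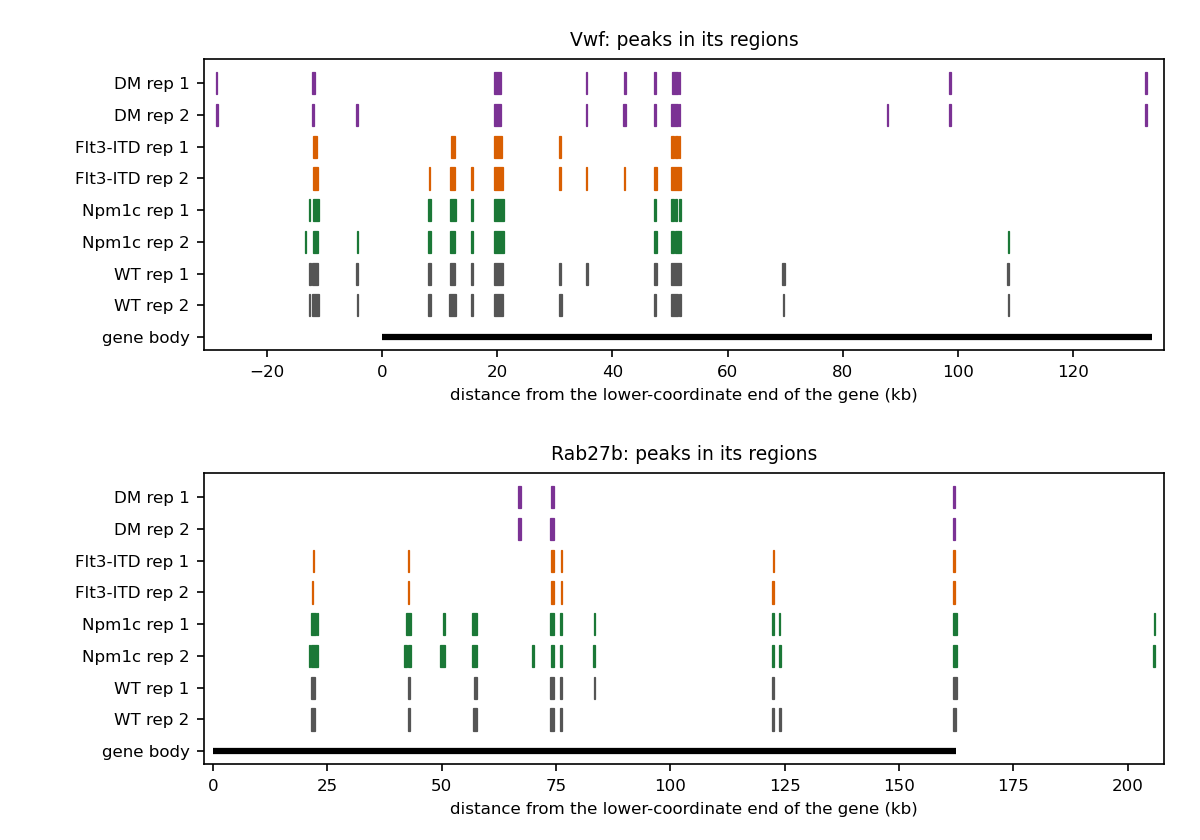
Peaks in the regions of Vwf (top) and Rab27b (bottom), with a row for each library and the gene body as a black bar. The x axis is the distance in kb from the lower-coordinate end of the gene. At Rab27b the Npm1c libraries have 13 and 15 called regions and the DM libraries 3 each, and at Vwf several peaks of DM lie where the other genotypes have none.

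Cd9 encodes a tetraspanin abundant on platelets and also found on stem cells, and 8 of its 25 regions were called in all 8 libraries. Over the 79 regions 19 (24.1%) were, with 25.3% over all regions. Its promoter region (chr6:125494176-125494995) was covered by 669 and 631 bp in DM, 679 and 685 bp in Flt3-ITD, 487 and 291 bp in Npm1c and 820 and 744 bp in WT, with Npm1c below all others. At chr6:125473204-125474388, inside the gene, DM was lowest, with 370 and 257 bp, against 928 and 1066 bp in Flt3-ITD, 886 and 808 bp in Npm1c and 1185 and 1133 bp in WT. A wide region 15931.5 bp before the gene's start (chr6:125509722-125511661), between Cd9 and Vwf, ran 1498 and 1313 bp in DM, 961 and 834 bp in Flt3-ITD, 385 and 378 bp in Npm1c and 1274 and 615 bp in WT. The widest Cd9 region, chr6:125480460-125482800, had 1596 and 1619 bp in DM, 1550 and 1492 bp in Flt3-ITD, 1408 and 1565 bp in Npm1c and 2341 and 2003 bp in WT.

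Cd9 also held regions that a single genotype lacked or alone had. DM lost 5 of the 25 Cd9 regions against WT, where 20.9% of all regions were lost. These 5 had 200 to 687 bp in a WT library. Beyond the far end of the gene, chr6:125444128-125444438 (294 and 311 bp) and chr6:125449748-125450084 (316 and 335 bp) were called in DM alone. Over the 79 regions 6 (7.59%) were called in DM alone, with 5.13% over all regions, and 8 (10.1%) in all but DM, with 2.78%. Flt3-ITD alone had chr6:125471326-125471681, with 288 and 279 bp. The region chr6:125476003-125476386 had no peak in the DM and Flt3-ITD libraries, 233 and 247 bp in Npm1c and 299 and 384 bp in WT, a loss with the Flt3-ITD allele. That pattern, shared with 1 Rab27b region, held for 2 of the 79 (2.53%), where 8.38% of all regions had it, and none of the 79 had the reverse (0.566% of all regions). Such a region has p = 0.0286 in the Fisher exact test and p = 0.32 after adjustment over all regions. The low share of losses with the Flt3-ITD allele depends on the setting. With lists of equal length they were 3 of 64 (4.69%), with 3.89% of all regions. With the stricter call described at the end they were 8 (10.1%), near the 11% of all regions.

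**Figure D5:**
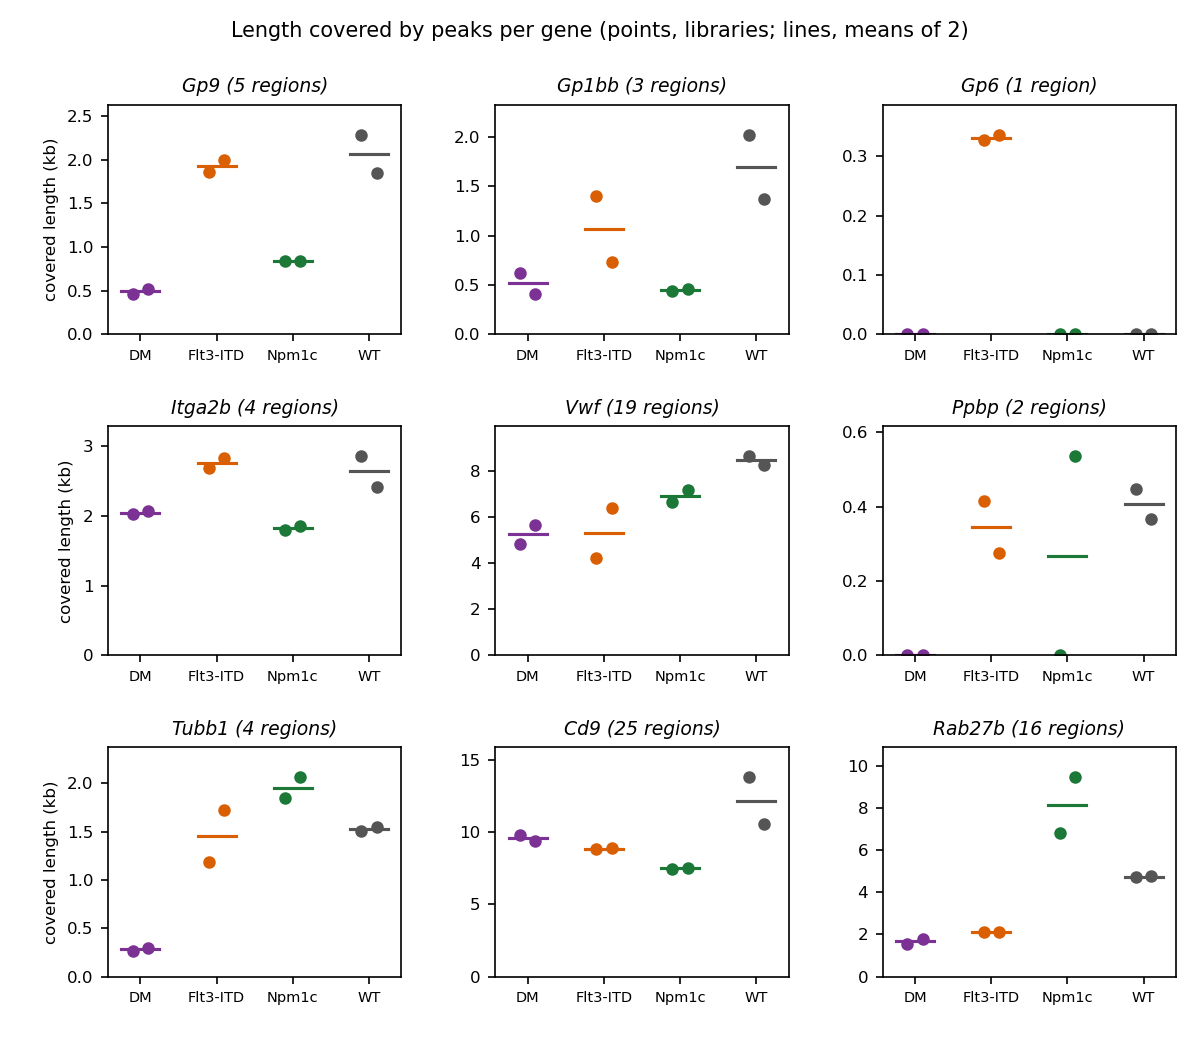
Length covered by peaks over all regions of each gene, in kb, by genotype, with a point for each library and a line at the mean of 2. Each panel has its own axis from 0. Gp9, Gp1bb and Itga2b are lowest in the libraries with Npm1c (DM and Npm1c), Tubb1 is lowest in DM, and Rab27b is highest in Npm1c and low in Flt3-ITD and DM.

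Covered length per gene was tested between libraries with and without each allele, 4 against 4, over the 16612 genes with a region (two-sided exact permutation test of 70 relabellings, smallest p 0.0286, Benjamini-Hochberg adjustment over all genes). No gene passed an adjusted p of 0.05 for either allele, where 737 genes had an unadjusted p under 0.05 for Npm1c and 6827 for Flt3-ITD. With that smallest p a gene could pass only if most of the genes reached it, so the lack of a pass decides little. Libraries with the Npm1c allele averaged 665.5 ± 202.5 bp at Gp9 and those without it 1996 ± 204.4 bp (SD, n = 4 each, log2 ratio -1.58, exact permutation p = 0.0286, adjusted p = 0.644). At Gp1bb they averaged 484.0 ± 95.6 bp with the allele and 1381 ± 525 bp without it (n = 4 each, log2 ratio -1.51, exact permutation p = 0.0286, adjusted p = 0.644). At Itga2b the values were 1934 ± 127 bp with it and 2696 ± 201 bp without it (n = 4 each, log2 ratio -0.48, exact permutation p = 0.0286, adjusted p = 0.644). These are 3 of 9 genes with no overlap between the sides, all lower with the allele, where 3.44% of all genes were lower without overlap. Per Mb covered, where 7.59% of all genes were lower without overlap, Gp9 and Gp1bb stayed apart and Itga2b did not (exact permutation p = 0.171). Vwf then did, at 165.8 ± 2.89 bp per Mb with the allele and 192.6 ± 21.9 without it (n = 4 each, exact permutation p = 0.0286, adjusted p = 0.244).

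With the Flt3-ITD allele Rab27b averaged 1884 ± 269 bp and without it 6431 ± 2243 bp (n = 4 each, log2 ratio -1.77, exact permutation p = 0.0286, adjusted p = 0.0695). Vwf averaged 5290 ± 940 bp with the allele and 7688 ± 939 bp without it (n = 4 each, log2 ratio -0.54, exact permutation p = 0.0286, adjusted p = 0.0695). Lists with this allele are shorter, the median log2 ratio of all genes was -0.49, and 40.1% of genes were lower without overlap, so 2 of 9 is below the background. Per Mb covered the median was 0.06. On that scale Rab27b was still lower with the allele, at 65.4 ± 16.6 against 151 ± 55.8 bp per Mb (n = 4 each, exact permutation p = 0.0286, adjusted p = 0.0878), as 15.7% of genes were. Vwf had equal means there (180 and 179 bp per Mb). Cd9 and Itga2b were higher without overlap per Mb (16.8% of genes), though in bp Cd9 averaged 9226 with the allele and 9831 without it.

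At Itga2b the genotypes had 2021 and 2063 bp in DM, 2683 and 2830 bp in Flt3-ITD, 1800 and 1853 bp in Npm1c and 2854 and 2416 bp in WT, with overlap between Flt3-ITD and WT. Gp1bb had 624 and 411 bp in DM, 1400 and 736 bp in Flt3-ITD, 439 and 462 bp in Npm1c and 2021 and 1368 bp in WT, where DM overlaps Npm1c and Flt3-ITD overlaps WT. By genotype, covered length at Gp9 was 461 and 522 bp in DM, 1858 and 1998 bp in Flt3-ITD, 841 and 838 bp in Npm1c and 2285 and 1845 bp in WT. Flt3-ITD and WT overlap there, and Npm1c and DM lie below both and apart from each other. Tubb1 had 267 and 298 bp in DM, 1183 and 1727 bp in Flt3-ITD, 1844 and 2065 bp in Npm1c and 1503 and 1546 bp in WT, so only Flt3-ITD and WT overlap. For Vwf the values were 4854 and 5679 bp in DM, 4238 and 6387 bp in Flt3-ITD, 6653 and 7161 bp in Npm1c and 8659 and 8280 bp in WT, with DM inside the range of Flt3-ITD. Cd9 measured 9812 and 9398 bp in DM, 8831 and 8862 bp in Flt3-ITD, 7470 and 7506 bp in Npm1c and 13804 and 10545 bp in WT, with no overlap. Per Mb covered Cd9 was 327 and 277 in DM, 365 and 298 in Flt3-ITD, 189 and 174 in Npm1c and 275 and 265 bp per Mb in WT, so WT no longer led and Npm1c was lowest on both scales.

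Another 35 platelet genes, receptors, granule proteins and signalling or cytoskeletal proteins, held 299 regions. DM lost 54 of them against WT (18.1%, with 20.9% over all regions) and gained 11 (3.68%, with 6.93%). Flt3-ITD gained 5 (1.67%, with 0.852%), 1 each at F5, Thbs1, Itgb3, Alox12 and Ptgs1, and lost 35 (11.7%, with 16.2%). Npm1c gained 3 (1.0%, with 2.71%) and lost 22 (7.36%, with 6.26%). DM against Flt3-ITD lost 23 (7.69%, with 3.44%) at 15 of the 35 genes, most at Myh9 (5 of 31), the non-muscle myosin of platelets, and Rap1b (3 of 30), a GTPase of integrin activation. By number, most losses in DM against WT were at P2ry1 (6 of 11), an ADP receptor, Fyb (6 of 29), Rap1b and Tbxas1 (5 of 30 each), while Mmrn1 (4 of 6) and Serpine2 (4 of 8) lost larger shares of their regions than Fyb, Rap1b and Tbxas1. Of 32 promoter windows, found for 29 of these genes, 17 were called in all 8 libraries, 6 in none and 9 in some.

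Genes that drive or mark other lineages differed between the same libraries, and their part in the results above was not tested. The transcription factor genes Gata1, Nfe2, Fli1, Gfi1b, Runx1, Zfpm1 and Tal1 each had a called region in every library. Their 151 regions covered 48.2 and 50.2 kb in DM, 60.0 and 76.8 kb in Flt3-ITD, 72.9 and 74.9 kb in Npm1c and 110 and 89.6 kb in WT. Lengths in kb also vary with the length of the lists. Per Mb covered in the library these regions had 1610 and 1480 bp in DM and 2480 and 2580 bp in Flt3-ITD. Npm1c had 1840 and 1730 and WT 2200 and 2250 bp per Mb, so Flt3-ITD was highest on that scale. The 6 erythroid markers covered 3.16 and 2.54 kb in DM, 7.05 and 10.6 kb in Flt3-ITD, 17.9 and 18 kb in Npm1c and 14.7 and 13.8 kb in WT, with 5 of 6 genes holding a region and Hba-a1 none. Their values per Mb were 105 and 74.9 bp in DM, 291 and 355 in Flt3-ITD, 453 and 417 in Npm1c and 293 and 346 in WT. On that scale Flt3-ITD and WT overlap. Hbb-bt was uncalled in Flt3-ITD replicate 1 and Alas2 in DM replicate 2. The 5 monocyte markers, all with called regions in every library, covered 20.4 and 24.4 kb in DM, 12.3 and 14.7 kb in Flt3-ITD, 8.41 and 8.23 kb in Npm1c and 19.9 and 10.2 kb in WT. Scaled per Mb they had 680 and 719 bp in DM, 510 and 492 in Flt3-ITD, 213 and 190 in Npm1c and 397 and 256 in WT. Flt3-ITD was then above WT. Mast cell and basophil markers covered 0.291 and 0.737 kb in DM, 0.664 and 0.747 kb in Flt3-ITD, 2.61 and 4.22 kb in Npm1c and 4.66 and 2.21 kb in WT. Cpa3 was uncalled in both DM libraries and Ms4a2 in DM replicate 1. Prss34 was uncalled in replicate 1 of DM, Flt3-ITD and Npm1c. Mcpt8 was uncalled in both Npm1c libraries, Flt3-ITD replicate 2 and WT replicate 2. Neutrophil markers covered 11.5 and 7.4 kb in DM, 6.56 and 5.84 kb in Flt3-ITD, 4.05 and 3.8 kb in Npm1c and 7.64 and 3.67 kb in WT. Scaled per Mb the neutrophil markers had 384 and 218 bp in DM, 271 and 196 in Flt3-ITD, 102 and 88.0 in Npm1c and 152 and 92.3 in WT. Among them Camp was uncalled in both DM and both Flt3-ITD libraries and WT replicate 2, Elane in both Npm1c libraries and WT replicate 2, and S100a8 in Flt3-ITD replicate 1. The T and NK markers ranged from 2.51 to 7.03 kb, or 84.4 to 163 bp per Mb, with Cd3g at 0 in all libraries. Cd3e was called in WT replicate 1 and DM replicate 2 alone, and Klrb1c held 9 of the 16 regions of this list. Against WT, DM lost 33.3% of erythroid, 28.6% of mast cell and basophil, 26.5% of transcription factor and 26.4% of stem and progenitor regions. It lost 7.14% of monocyte, 6.25% of T and NK and 0% of neutrophil regions (all regions 20.9%). Against Flt3-ITD, DM lost 9.93% of transcription factor, 7.14% of mast cell and basophil, 5.56% of erythroid and 5.36% of monocyte regions. It lost 2.78% of stem and progenitor and 0% of neutrophil and of T and NK regions there (all regions 3.44%).

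Genes whose share of called regions was most like that of a platelet gene over the 8 libraries were found among 7104 other genes with at least 5 regions, by the mean absolute difference of the share. They were Eps15l1 for Cd9 (3.62 percentage points), Hivep1 for Vwf (3.81), Fbxo30 for Rab27b (4.38) and Pdlim7 for Gp9 (10). The likeness is a description over 8 libraries of unequal list length.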

How the data were processed

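ATAC-seq was measured in 8 HSPC libraries, grouped by the genotype and replicate number in the sample titles. Reads were aligned with Bowtie2 and peaks called with MACS2 on mm10, per the submitters' processing notes, and versions, thresholds, duplicate handling and any Tn5 shift are not given in the sources used here. Each library has its own list, deposited by the authors as a start and an end in bp per peak, between 43825 and 80916 peaks with a minimum width of 200 bp. Peaks were merged in Python 3.11.15 (checked against bedtools 2.31.1), and 94.8% of regions were assigned to 21627 protein-coding genes of RefSeq GRCm38.p6, the build that mm10 corresponds to. Coordinates count from 1. Promoter windows came from the RefSeq promoter table of the same build. No exon, intron or UTR is stated. Fisher tests used SciPy 1.17.1 and permutation tests numpy 2.4.6. The permutation test was tried on simulated covered lengths, and the Fisher test was not tried on simulated data. P-values measure only the spread between these libraries. Each side of an allele test holds 2 genotypes, so its SD and the relabellings also take in the difference between those genotypes. Intervals are not given, since read depth is unknown. All 9 genes are named; regions are named where they lie at the promoter, are the widest of a gene, or were gained, lost or called 4 against 0, and where a gene has over 4 such regions by range and count, with examples chosen after their values were seen. Gp1ba, Gp5 and Pf4 were also chosen so. The members and all gene lists were chosen with earlier results of these data known. Alternatives tried were a gene distance of 50 kb, a call needing at least 50% of the region, equal list lengths, scaling per Mb covered, single libraries left out and a replicate block. The result of 1 marker list is not reported here.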

Additional observations from a re-analysis of the deposited data

Results flagged for a closer look

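Among the covered lengths of the 9 genes over 4 libraries with or without an allele, 36 groups were examined for a library far from the rest. The cut marks about 1 in 20 groups of 4 values from a single normal distribution. These groups hold 2 genotypes and values of 0, so that rate need not hold here. A group in which all libraries but 1 have 0 bp is always marked. At Ppbp, Npm1c replicate 2 had 536 bp, while Npm1c replicate 1 and both DM libraries had 0 bp.

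At 3 genes the change with an allele ran in opposite directions in the 2 backgrounds, with every library on its side, and the difference itself was not tested. Such reversals were not counted over all genes, so whether 3 is an unusual number is not known. Tubb1 was 430 bp higher in Npm1c than in WT, and DM minus Flt3-ITD was -1172.5 bp. Rab27b was 3395.5 bp higher in Npm1c than in WT, and DM minus Flt3-ITD was -438.5 bp. Cd9 differed by -4686.5 bp in Npm1c minus WT and by 758.5 bp in DM minus Flt3-ITD. Read by the other allele, Cd9 differed by -3328 bp in Flt3-ITD minus WT and by 2117 bp in DM minus Npm1c. Per Mb covered the Cd9 differences had the same sign in both backgrounds, at -29.5 for DM minus Flt3-ITD and -88.5 for Npm1c minus WT, and by the other allele 120.0 for DM minus Npm1c and 61.5 bp per Mb for Flt3-ITD minus WT. Tubb1 (-44.6 for DM minus Flt3-ITD and 12.8 for Npm1c minus WT) and Rab27b (-26.7 and 88.5 bp per Mb for the same differences) kept opposite signs.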

How the results depend on the processing

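A gene distance of 50 kb changed no count of gained or lost regions. With equal list lengths, which leave 64 platelet gene regions, 5 counts moved. Gained in Flt3-ITD against WT was 8 (5.85% of all regions, in place of 0.852%) and lost there 3 (6.49% of all regions). Gained in Npm1c against WT was 0 (4.72% of all regions) and lost in DM against Npm1c 12 (18.2% of all regions). Lost with the Npm1c allele was 2 (0.629% of all regions, in place of 0.204%). When a call needs 50% of the region covered, 16 were lost in Flt3-ITD against WT (20.3%, with 20.4% over all regions). Npm1c against WT then gained 2 (2.53%, with 3.4%), below the share of all regions. With the same call 8 were lost with the Flt3-ITD allele (10.1%, with 11%). The cause of these moves was not tested. With single libraries left out, lost regions in Flt3-ITD against WT ranged from 10 to 14. The 14 (17.7%, with 23.1% over all regions) came without Flt3-ITD replicate 2. Gained in Npm1c against WT ranged from 4 to 7 (8.86%, with 6.19% over all regions, without Npm1c replicate 1). Lost there ranged from 9 to 14, without WT replicate 2 (17.7%, with 17.3%) or Npm1c replicate 2 (17.7%, with 9.36%). Gained with the Flt3-ITD allele ranged from 0 to 1, without WT replicate 1 (1.27%, with 2.43%) or Flt3-ITD replicate 1 (1.27%, with 0.977%). Lost with it ranged from 2 to 6 (7.59%, with 11.7%, without Flt3-ITD replicate 2). Without Npm1c replicate 1 the count lost with the Flt3-ITD allele was 4 (5.06%, with 9.69%). No setting gave a gene an adjusted permutation p under 0.05, but this decides little. With the replicate block the smallest permutation p was 0.0556, so no gene could pass. In the other settings it was 0.0286, and a gene could pass only if most genes reached it. Covered length per Mb turned the difference with the Flt3-ITD allele to higher at Gp9 (10.5), Gp1bb (4.76), Vwf (1.09) and Cd9 (91.0 bp per Mb), and equal list lengths did so at Gp9 (101.8 bp) and Cd9 (308 bp). Leaving out libraries moved that difference between -505.2 and 35.1 bp at Gp9, -490.9 and 36.4 bp at Gp1bb and -1393 and 718.8 bp at Cd9, and the Npm1c allele difference at Rab27b between -43.9 and 2593 bp. The replicate block changed no count, since both pairs must show a gain or loss either way, and with 36 relabellings the lowest adjusted p was 0.126 for Flt3-ITD and 0.892 for Npm1c. Same-numbered libraries deviated from their group means with correlations of -0.206 to 0.149 over regions. Those with WT were negative and the others positive, and only in WT was the list of replicate 1 the longer one. With 2 libraries per genotype these correlations cannot show whether the numbers mark a pairing. Read depth, which is unknown, limits every absence reported.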
